A study of Mus musculus with 16 samples.

Results

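Inflammasomes are cytosolic complexes in which a sensor protein recognises a microbial product or a disturbance of the cell and activates caspase-1, in most cases through the adaptor ASC. Caspase-1 then cleaves pro-IL-1β, pro-IL-18 and gasdermin D, whose amino-terminal fragment forms pores in the plasma membrane and starts the lytic death called pyroptosis. In macrophages the pathway is known for its priming step, in which a Toll-like receptor ligand such as LPS raises the transcripts of Nlrp3 and Il1b through NF-κB before any sensor is triggered. The genes described here are the sensors Nlrp3, Nlrp1b, Nlrc4, Naip2, Naip5 and Aim2, the ASC gene Pycard, the caspases Casp1 and Casp4, and the pore former Gsdmd. They were taken by symbol and are 10 of the 47069 genes in the count table.

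The cells were bone marrow-derived macrophages (BMMs), grown in L929-conditioned medium from C57BL/6 mice aged 8-10 weeks. All of them had been primed overnight with IFNγ at 10 ng/mL and were activated for 1 hr with Salmonella LPS (100 ng/mL) and immune complexes (ICs) of ovalbumin with IgG. One group received 25 μM DAPT, an inhibitor of γ-secretase (GSI), the protease that cleaves Notch receptors, and the other received the vehicle DMSO at 0.01%. The comparison asks which transcripts of activated macrophages differ when γ-secretase is inhibited. The authors state that γ-secretase also has substrates other than Notch receptors, and that these may account for some effects of GSI. The differences below therefore cannot be assigned to Notch alone. The methods give an overnight incubation with either agent before activation, but legends of other experiments of the study give a shorter one, and which applies to these samples is not stated. There were 2 replicates per group and no unstimulated samples, so the values say nothing of how far LPS/ICs had induced each gene. Nothing in the labels says that the replicates came from separate mice, and the p-values measure only the spread between these cultures.

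The 4 libraries, each the sum of 4 runs, held 42694655 to 56932059 counts. Levels are given in CPM, counts scaled to a library of 1000000 after adjustment of the library sizes by edgeR's TMM factors. A count of 0 leaves room for a level of up to 3 counts, or 0.0527 to 0.0703 CPM by library total, a floor that covers counting error only. All 7 macrophage markers were expressed, but their summed level was lower with GSI, at 8403 and 9186 CPM against 10430 and 10720 CPM with DMSO, and the part of this shift in the results below was not tested. The markers did not move together: Adgre1, Csf1r, Itgam, Lyz2 and Fcgr1 fell, Mertk rose (log2 fold change 0.64, edgeR adjusted p = 1.62e-06), and Cd68 did not pass the test (0.18, edgeR adjusted p = 0.0616). Other cell types were counted at much lower levels, with sums of 0.628 to 1.30 CPM for 8 neutrophil markers (Ly6g, Retnlg, Elane and Mpo at 3 counts or fewer in every library), 3.93 to 5.72 CPM for 5 dendritic cell markers (mostly Xcr1, with 170 to 263 counts per library, and Flt3 at 3 counts or fewer), 0.0232 to 0.124 CPM for 6 lymphoid markers, all at 3 counts or fewer, and 0.0621 to 0.162 CPM for 4 fibroblast markers, of which Col1a1, Col3a1 and Pdgfra were at 3 counts or fewer. Xcr1 was lower with GSI (log2 fold change -0.42, edgeR adjusted p = 0.0175), and its part in the results was not tested either. In these bulk samples fewer cells and less RNA per cell cannot be told apart.

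With GSI, transcripts of 4 of the 6 sensors were lower, and those of the adaptor and of the pore former were slightly higher. Nlrp3, Nlrp1b, Naip5 and Naip2 fell, Pycard and Gsdmd rose, and Nlrc4, Aim2, Casp1 and Casp4 did not pass the test. Fold changes are GSI against DMSO, tested with edgeR's quasi-likelihood test at a Benjamini-Hochberg adjusted p (FDR) under 0.05. All 10 genes passed the filter on low counts and were tested, and 6 of them were called, against 40.8% of the 13211 genes tested. Of the 6 genes, 4 were lower, against 21.9% of all tested genes called lower, and 2 were higher, against 19% called higher. None of the 10 passed this threshold together with a log2 fold change of more than 1.5 in size, as 2.91% of the tested genes did. The GSI and DMSO libraries did not overlap for any of the 10 genes, nor for 70.6% of all tested genes, so that this separation was common in the data. The median log2 fold change was -0.06 over the 10 genes and 0.01 over all tested genes, and the median absolute log2 fold change was 0.236 and 0.242, so that the 10 genes together did not stand out by size from the other genes.

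**Figure D1:**
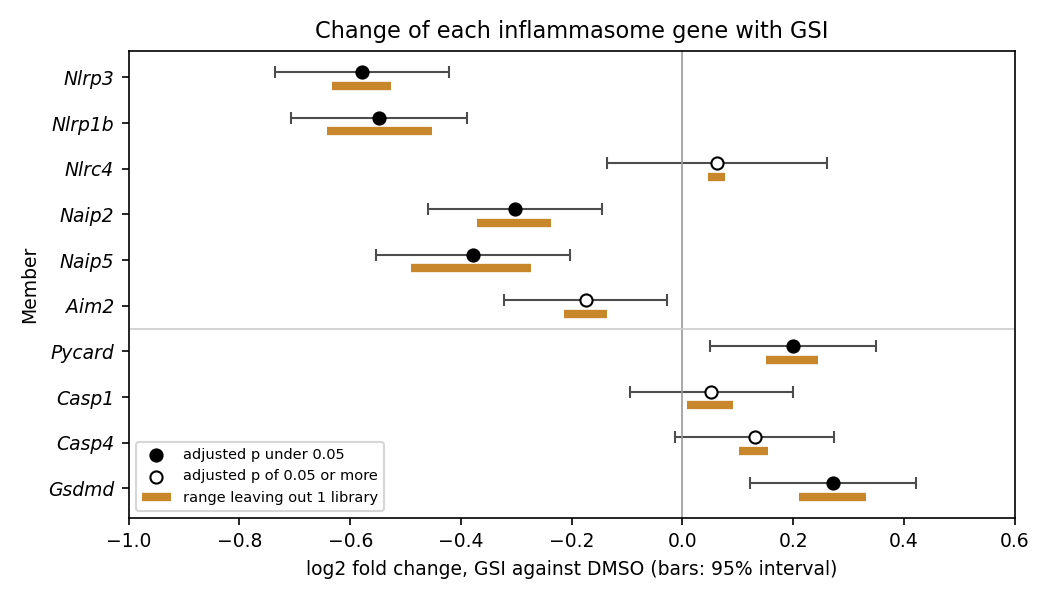
Log2 fold change of each inflammasome gene with GSI against DMSO (x axis), with sensors above the horizontal line and the adaptor and effectors under it. Points are estimates of edgeR, thin bars their 95% intervals and thick bars the range when 1 library is left out. The 4 called sensors sit between -0.58 and -0.30, and Pycard and Gsdmd at 0.20 and 0.27.

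Nlrp3 encodes the sensor that responds to potassium efflux, ATP, crystals and many other triggers. It lies on mouse chromosome 11, at chr11:59541568-59566956 on the plus strand of GRCm38, with 11 exon blocks and no exon bases shared with another gene. Its level was 957 and 1031 CPM with DMSO and 646 and 685 CPM with GSI. Both GSI libraries were well under both DMSO libraries, and the mean fell from 994 ± 52.9 to 665.5 ± 27.2 CPM (SD, n = 2), at a ratio of 0.670. The log2 fold change was -0.58 (SE 0.0750, 95% interval -0.74 to -0.42, edgeR adjusted p = 3.28e-06), and it lay between -0.63 and -0.53 when any 1 library was left out. Nlrp3 was the most abundant of the 10 transcripts in CPM in every library, and the size of its change exceeded that of 82.2% of the tested genes.

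RefSeq lists a pair of start sites for Nlrp3. Their windows, 250 bases before the start base and 50 from it on, in GRCm38.p6, on the plus strand and written 5′ to 3′, are shown because Nlrp3 is the most abundant of the sensors that fell. Capitals mark the letters TGGGAA on either strand, the core recognised by RBPJ, the DNA-binding partner of cleaved Notch.

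Nlrp3 window at chr11:59541319-59541618: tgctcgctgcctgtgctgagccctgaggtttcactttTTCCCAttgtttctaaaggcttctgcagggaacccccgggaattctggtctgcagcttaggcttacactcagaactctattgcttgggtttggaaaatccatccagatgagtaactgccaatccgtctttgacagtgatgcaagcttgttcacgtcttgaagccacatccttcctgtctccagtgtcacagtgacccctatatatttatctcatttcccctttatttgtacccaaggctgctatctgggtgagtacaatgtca
Nlrp3 window at chr11:59542436-59542735: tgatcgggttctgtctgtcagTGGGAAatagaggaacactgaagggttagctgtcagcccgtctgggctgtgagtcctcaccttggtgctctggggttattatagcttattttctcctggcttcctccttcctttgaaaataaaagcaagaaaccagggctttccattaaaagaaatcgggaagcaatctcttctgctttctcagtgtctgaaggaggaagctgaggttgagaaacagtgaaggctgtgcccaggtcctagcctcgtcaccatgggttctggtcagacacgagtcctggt

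Nlrp1b, whose product is, in susceptible mouse strains, cleaved by the lethal factor protease of anthrax, fell to a similar extent. The gene lies at chr11:71153102-71230733 on the minus strand. Its level was 94.8 and 108 CPM with DMSO and 68.0 and 70.7 CPM with GSI. The groups did not overlap, and the GSI libraries lay closer together than the DMSO libraries. The log2 fold change was -0.55 (SE 0.0762, 95% interval -0.71 to -0.39, edgeR adjusted p = 7.98e-06), with a range of -0.64 to -0.45 when a library was left out. Of the 50-base stretches of its transcripts, 1.45% also occur in another gene, so few of its counts depend on how shared reads were placed.

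Nlrc4 and the Naip genes form 1 type of inflammasome: a NAIP protein binds flagellin or a part of the bacterial secretion needle, and NLRC4 then assembles with it. Naip2, which recognises the inner rod protein, and Naip5, which recognises flagellin, lie side by side on chromosome 13 at chr13:100144063-100202092 and chr13:100211739-100246323 on the minus strand. The level of Naip2 was 54.4 and 52.6 CPM with DMSO and 41.4 and 45.4 CPM with GSI. The decrease was larger than the spread within either group, with a log2 fold change of -0.30 (SE 0.0754, edgeR adjusted p = 0.00306). Naip5 was at 34.2 and 35.7 CPM with DMSO and at 24.8 and 28.9 CPM with GSI, and its log2 fold change was -0.38 (SE 0.0842, edgeR adjusted p = 0.0012). GSI replicate 1 was the lower of the GSI libraries for both genes, and the call of each was kept when any 1 library was left out, with log2 fold changes of -0.37 to -0.24 for Naip2 and of -0.49 to -0.27 for Naip5.

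The counts of the Naip genes are less certain than those of the other sensors because the genes are near copies. Of the 50-base stretches in the Naip5 transcripts, 36.9% also occur in another gene, mainly Naip6 (22.3%), Naip3 (14.5%) and Naip1 (13.8%). For Naip2 the share was 19.1%, with Naip1, Naip3 and Naip5 as the genes sharing most. The likeness extends into the promoters. The windows of both genes in GRCm38.p6 are shown for that reason, on the minus strand and written 5′ to 3′, with their longest shared run of 34 bases in capitals. When the windows are aligned at that run, 124 of the last 150 aligned bases are identical (82.7%). The RefSeq starts used for both genes lie outside the gene spans given above, which come from GENCODE.

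Naip2 window at chr13:100202073-100202372: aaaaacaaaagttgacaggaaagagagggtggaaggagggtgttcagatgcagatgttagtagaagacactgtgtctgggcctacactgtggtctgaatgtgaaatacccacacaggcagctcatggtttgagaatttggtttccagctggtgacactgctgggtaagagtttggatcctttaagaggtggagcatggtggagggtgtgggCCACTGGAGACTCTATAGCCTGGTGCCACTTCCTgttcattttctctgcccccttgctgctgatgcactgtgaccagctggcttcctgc
Naip5 window at chr13:100247287-100247586: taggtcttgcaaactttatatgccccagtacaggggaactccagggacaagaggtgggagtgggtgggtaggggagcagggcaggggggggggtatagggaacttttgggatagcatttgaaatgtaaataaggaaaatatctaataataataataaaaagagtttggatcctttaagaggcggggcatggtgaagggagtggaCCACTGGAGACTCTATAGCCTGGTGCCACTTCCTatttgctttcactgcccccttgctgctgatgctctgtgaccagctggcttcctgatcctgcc

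Nlrc4, the partner of the NAIP proteins (chr17:74425438-74459142, minus strand), was the least abundant member and gave no detectable difference. It was counted at 10.95 and 11.17 CPM with DMSO and at 11.67 and 11.44 CPM with GSI. The log2 fold change of 0.06 (SE 0.0954) had an adjusted p of 0.639 by edgeR's test. Its 95% interval of -0.14 to 0.26 lies above the estimates for all 4 sensors that fell. With 471 to 634 counts per library, it was also the member with the widest interval.

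Aim2 encodes the sensor of double-stranded DNA in the cytosol and lies at chr1:173350879-173466040 on the plus strand. Its level was 99.7 and 96.8 CPM with DMSO and 89.4 and 84.7 CPM with GSI. The GSI libraries were lower, but the difference narrowly missed the threshold, with a log2 fold change of -0.17 (SE 0.0703, 95% interval -0.32 to -0.03) and an adjusted p of 0.053 by edgeR's test. The adjusted p was 0.0453 with DESeq2's size factors in edgeR, 0.0474 with no normalization factors, 0.0444 with at least 10 counts required in every library and 0.0421 without GSI replicate 1, where the log2 fold change was -0.21. It was 0.0602 with DESeq2, 0.0988 with no filter, 0.235 without DMSO replicate 1, 0.111 without DMSO replicate 2 and 0.228 without GSI replicate 2, where the log2 fold change was -0.14. The window at its RefSeq start is given on the plus strand of GRCm38.p6. It is shown because, of the members' windows, only it held the letters GGGANTTTC, which stand in capitals. These letters cover only some forms of the NF-κB core, and other forms were not searched for in any window.

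Aim2 window at chr1:173420354-173420653: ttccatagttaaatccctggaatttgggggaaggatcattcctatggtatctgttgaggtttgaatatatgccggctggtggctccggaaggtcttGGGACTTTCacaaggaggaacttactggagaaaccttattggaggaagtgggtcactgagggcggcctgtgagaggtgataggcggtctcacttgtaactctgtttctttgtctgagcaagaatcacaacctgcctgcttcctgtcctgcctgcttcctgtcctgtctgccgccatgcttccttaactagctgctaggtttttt

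**Figure D2:**
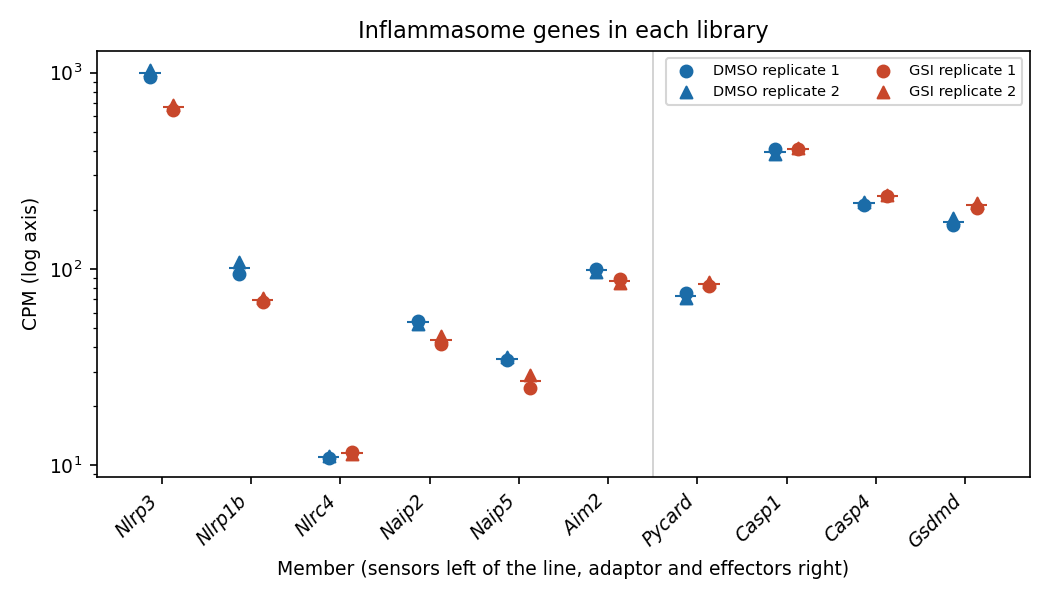
Level of each inflammasome gene in each of the 4 libraries, in CPM on a log axis, with DMSO in blue and GSI in red, replicates 1 and 2 as circles and triangles and horizontal bars at the group means. Nlrp3 is the highest gene in every library and lies at 957 and 1031 CPM with DMSO against 646 and 685 CPM with GSI, while Casp1 stays between 384 and 411 CPM in all 4 libraries.

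Downstream of the sensors, Pycard (chr7:127989708-127993867, minus strand) encodes ASC, the adaptor that polymerises into the speck on which caspase-1 is activated. It was counted at 75.4 and 70.8 CPM with DMSO and at 81.6 and 86.2 CPM with GSI. The mean rose from 73.1 ± 3.30 to 83.9 ± 3.22 CPM (SD, n = 2). On the log2 scale the fold change was 0.20 (SE 0.0720, 95% interval 0.05 to 0.35, edgeR adjusted p = 0.032). This small rise lost its call with DESeq2 (adjusted p = 0.0579), without DMSO replicate 2 (log2 fold change 0.15, edgeR adjusted p = 0.257) and without GSI replicate 2 (0.16, edgeR adjusted p = 0.142). Pycard was the only member with exons opposite those of another gene. It shares 485 bases with Gm45205, which had 24 and 29 counts with DMSO and 5 and 0 with GSI, against 3245 to 4255 counts of Pycard. Gm45205 is given because the DMSO and GSI libraries differed in counts opposite expressed genes. That difference follows the groups and cannot be told apart from an effect of GSI, and its part in the result for Pycard was not tested.

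Casp1, the protease at the centre of the pathway (chr9:5298517-5307265, plus strand), stood at 406 and 384 CPM with DMSO and at 408 and 411 CPM with GSI. The GSI values exceeded the higher DMSO value by less than the distance between the DMSO libraries. The log2 fold change was 0.05 (SE 0.0706, 95% interval -0.10 to 0.20, edgeR adjusted p = 0.589). Casp4, the mouse caspase-11 gene, whose product binds LPS in the cytosol and cleaves gasdermin D without a sensor of the NLR type, is the next gene on the chromosome, at chr9:5308828-5336783. It was counted at 212 and 220 CPM with DMSO and at 234 and 238 CPM with GSI. Both GSI libraries were higher, but the difference did not pass the test, with a log2 fold change of 0.13 (SE 0.0688, 95% interval -0.01 to 0.27, edgeR adjusted p = 0.137).

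Gsdmd, the substrate of both caspases (chr15:75862327-75867408, plus strand), rose. Its level was 167 and 182 CPM with DMSO and 205 and 217 CPM with GSI. The mean went from 174 ± 10.5 to 211 ± 8.53 CPM (SD, n = 2), at a ratio of 1.21. The log2 fold change was 0.27 (SE 0.0720, 95% interval 0.12 to 0.42, edgeR adjusted p = 0.0048), and 0.21 without DMSO replicate 1, where the adjusted p was 0.0966.

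The genes were also compared without library totals or TMM factors, by dividing the counts of each by those of Casp1 in the same library. This takes Casp1 as the reference, so its own spread between libraries enters every ratio. For every 1000 counts of Casp1 there were 2354 and 2686 counts of Nlrp3 with DMSO and 1584 and 1664 with GSI. Nlrp1b was at 233 and 282 with DMSO and at 167 and 172 with GSI, and Naip5 at 84.1 and 92.9 with DMSO and at 60.9 and 70.3 with GSI. The groups also did not overlap for Naip2 (134 and 137 with DMSO, 101 and 110 with GSI) or for Aim2 (245 and 252 with DMSO, 219 and 206 with GSI). Nlrc4 overlapped between the groups, at 26.9 and 29.1 with DMSO and 28.6 and 27.8 with GSI. Pycard was at 186 and 184 with DMSO and at 200 and 209 with GSI, and Gsdmd at 411 and 474 with DMSO and at 502 and 527 with GSI, with both genes higher in both GSI libraries. Casp4 was at 521 and 572 with DMSO and at 574 and 579 with GSI, nearly touching. These ratios show unequal change of the genes and not which of them changed. In CPM the groups did not overlap for 70.6% of all tested genes, and the share on the Casp1 scale was not computed.

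**Figure D3:**
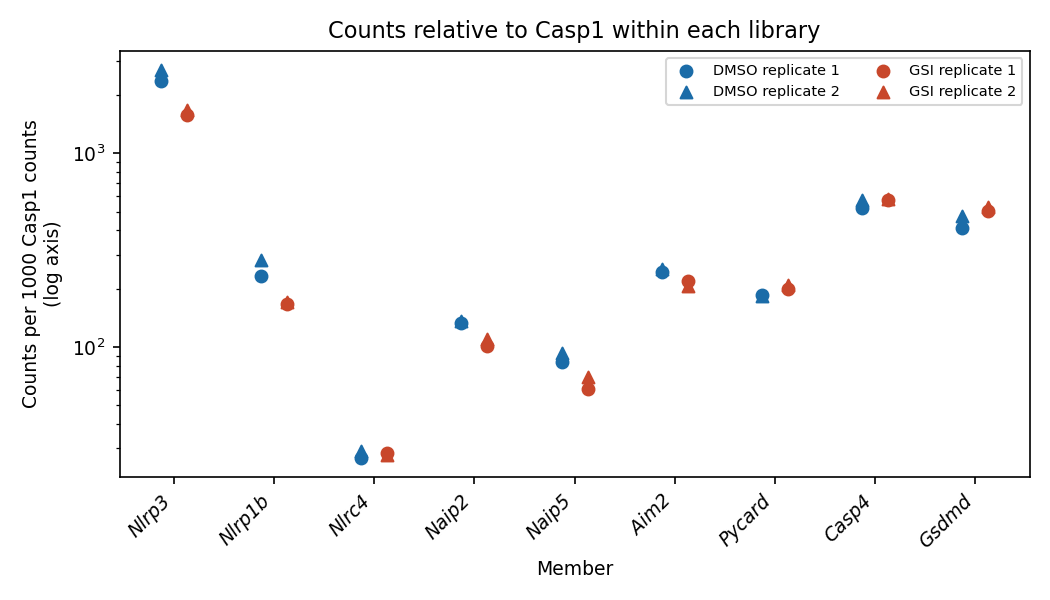
Counts of each inflammasome gene per 1000 counts of Casp1 in the same library (log axis), with DMSO in blue and GSI in red and replicates 1 and 2 as circles and triangles. Nlrp3 exceeds Casp1 in all 4 libraries, at 2354 and 2686 with DMSO and at 1584 and 1664 with GSI, and Nlrc4 overlaps between the groups.

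Together the 10 genes took 0.213% and 0.218% of all counts with DMSO and 0.181% and 0.187% with GSI. Nlrp3 alone made up 45.3% and 47.0% of the summed counts of the 10 genes with DMSO and 35.7% and 36.5% with GSI. Levels of different genes were compared per kb of exon. On the scale of CPM per kb over all annotated exons, with the DMSO mean first and the GSI mean second, Casp1 was highest at 264 and 274 and Nlrp3 second at 245 and 164. Gsdmd (73.4 and 88.6) and Casp4 (58.1 and 63.6) came next, then Aim2 (28.1 and 24.9), Pycard (19.2 and 22.1), Nlrp1b (16.1 and 11.0), Naip2 (11.0 and 8.95) and Naip5 (6.71 and 5.17). Nlrc4 was lowest, at 2.30 and 2.40. The order was the same in both groups, and no neighbours in it overlapped within a group. It depended on the transcript model: with the length of the longest coding transcript, Casp4 (150 and 165) stood above Gsdmd (97.4 and 118), Nlrp1b (24.5) passed Pycard (19.2) in the DMSO libraries, and Casp1 and Nlrp3 overlapped in the DMSO libraries and Nlrp3 and Casp4 in the GSI libraries.

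Promoter windows were given for 9 of the 10 genes (12 windows, GRCm38.p6 from RefSeq), with no entry for Gsdmd. Matches to 3 cores, on either strand, are given here. The RBPJ core TGGGAA, held by 25.6% of 32851 promoters, was found in Nlrp3, Nlrp1b, Nlrc4 and Casp4, of which Nlrp3 and Nlrp1b fell and Nlrc4 and Casp4 did not pass the test. In the Nlrp3 windows shown above it starts at -213 and -229, counted from the start base as 0. The letters GGGANTTTC, which cover only some forms of the NF-κB core, were in 1.11% of promoters and in Aim2 at -154. Other forms were not searched for, so no member can be said to lack an NF-κB site. The core of the interferon-stimulated response element, GAAANNGAA, in 8.56% of promoters, was found in Naip2 at -4, 1 base after the run shared with Naip5, whose window does not hold it. The letters of the RBPJ and NF-κB cores can overlap, but no window held more than 1 kind. A match is a description of the sequence and no sign of binding.

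Other sensors were described by a list chosen from general knowledge. Of 17 listed genes in the table, 14 were tested, 5 were lower, 3 were higher and 6 were not called, where 40.8% of all tested genes were called (21.9% lower and 19% higher), with a median log2 fold change of -0.17. The relatives of Nlrp1b fell with it: Nlrp1a went from 9.69 to 7.05 CPM (log2 fold change -0.46, SE 0.105, edgeR adjusted p = 0.00151) and the pseudogene Nlrp1c-ps from 15.1 to 5.68 CPM (-1.41, SE 0.103, edgeR adjusted p = 1.41e-09). Naip6, the closest copy of Naip5 here by shared sequence, fell from 27.8 to 19.6 CPM (-0.51, SE 0.0837, edgeR adjusted p = 5.87e-05). Nlrc3, an NLR known as an inhibitor of innate signalling, fell from 3.87 to 2.46 CPM (-0.65, SE 0.164, edgeR adjusted p = 0.00322). Naip1, chosen after its values were seen, had 5 counts in each DMSO library and 36 and 24 in the GSI libraries. It passed the filter only through the GSI libraries and is 1 of the 3 genes counted as higher, so its difference is given as counts only. Its sequence is shared in part with Naip2 and Naip5. With at least 10 counts required in every library, 7 genes of the list were called in place of 8.

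Of 20 genes known as triggers or regulators of NLRP3, 19 were tested, with 5 lower, 5 higher and 9 not called, against 40.8% of all tested genes called, and a median log2 fold change of 0.05. The largest changes were falls of channels, but other channels of the list were not called. These were Kcnk13 (log2 fold change 0.05, edgeR adjusted p = 0.63), Trpv2 (-0.11, edgeR adjusted p = 0.25) and Panx1 (0.20, edgeR adjusted p = 0.14). Of the genes called higher, Fbxl2 changed most (0.40, SE 0.108, edgeR adjusted p = 0.0051). Trpm2, a calcium channel opened by oxidative stress, fell from 27.1 to 10.2 CPM (log2 fold change -1.42, SE 0.0940, edgeR adjusted p = 3.77e-10). The potassium channel Kcnk6 fell from 45.4 to 26.8 CPM (-0.76, SE 0.0798, edgeR adjusted p = 2e-07), and P2rx7, the ATP-gated channel through which extracellular ATP triggers NLRP3, from 47.9 to 32.8 CPM (-0.55, SE 0.0739, edgeR adjusted p = 5.92e-06). Nek7, the kinase that NLRP3 needs for assembly, fell from 139 to 115 CPM (-0.27, SE 0.0757, edgeR adjusted p = 0.00719). Without DMSO replicate 1 its log2 fold change was -0.18 (edgeR adjusted p = 0.154), and 5 genes of the list were called in place of 10.

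The cytokines that caspase-1 processes, Il1a and the inhibitors of these cytokines formed the list with the lowest median log2 fold change, -0.53 over 6 tested genes, of which 3 were lower, 1 was higher and 2 were not called, where 21.9% of all tested genes were called lower and 19% higher. Il1b, the main substrate, was at 2491 and 2229 CPM with DMSO and at 758 and 686 CPM with GSI. Its log2 fold change of -1.71 (SE 0.0823, edgeR adjusted p = 4.81e-12) was larger than that of any of the 10 inflammasome genes. Il1a, released by the same lytic death, fell from 583 to 277 CPM (-1.08, SE 0.0720, edgeR adjusted p = 4.18e-10), and the decoy receptor Il1r2 from 4.65 to 2.56 CPM (-0.87, SE 0.189, edgeR adjusted p = 0.000953). The change of Il1r2 was -0.55 without GSI replicate 1 and -1.28 without GSI replicate 2, on the log2 scale. The gene called higher was Il18bp (0.18, SE 0.0720, edgeR adjusted p = 0.0482). Its call was lost with DESeq2, with DESeq2's size factors in edgeR, with no normalization factors and with at least 10 counts required in every library. Il18, the other substrate, was at 16.6 and 16.1 CPM with DMSO and 14.3 and 14.4 CPM with GSI and did not pass the test (-0.18, 95% interval -0.37 to 0.00188, edgeR adjusted p = 0.105).

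Among the other gasdermins and genes of membrane rupture or repair, 5 of 12 in the table were tested. The other 7 were gasdermin genes with 0 to 11 counts per library. Of these 5 genes, 4 were higher, against 19% of all tested genes called higher, and 1 was not called, with a median log2 fold change of 0.32. Ninj1, whose product ruptures the membrane after gasdermin pores have formed, rose from 289 to 504 CPM (log2 fold change 0.80, SE 0.0714, edgeR adjusted p = 2.18e-08). Chmp4b, a subunit of the ESCRT machinery that removes pores from the membrane, rose from 377 to 496 CPM (0.39, SE 0.0824, edgeR adjusted p = 0.000685). Its log2 fold change was 0.25 without GSI replicate 1 and 0.52 without GSI replicate 2. Dfna5, the older symbol of the gasdermin E gene Gsdme, went from 5.38 to 6.71 CPM (0.32, SE 0.116, edgeR adjusted p = 0.0323), a call that was lost when any 1 library was left out, with adjusted p-values of 0.0678 to 0.133, and with DESeq2 (0.153).

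Of 16 genes of other caspases and of necroptosis, all tested, 5 were lower, 2 were higher and 9 were not called, a share of calls near the 40.8% of all tested genes, and the median log2 fold change was -0.13. Casp12, a caspase related to Casp1 and Casp4, fell from 3.60 to 1.81 CPM (log2 fold change -0.99, SE 0.164, edgeR adjusted p = 6.14e-05). Mlkl, the pore-forming executor of necroptosis, rose from 99.9 to 149 CPM (0.58, SE 0.0768, edgeR adjusted p = 4.51e-06). Casp8, which can cleave gasdermin D and IL-1β in place of caspase-1, was called lower (115 to 98.8 CPM, -0.21, SE 0.0695, edgeR adjusted p = 0.0183), but the call was lost without DMSO replicate 1 (0.116), DMSO replicate 2 (0.0538) or GSI replicate 2 (0.0849), the values being edgeR adjusted p-values. Without DMSO replicate 1, 4 genes of this list were called in place of 7.

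Aim2 belongs to the PYHIN genes, which lie in a cluster on chromosome 1. Of its 8 relatives in the table, all tested, 1 was lower, 3 were higher and 4 were not called, against 40.8% of all tested genes called, with a median log2 fold change of 0.00. Ifi203 fell from 829 to 678 CPM (log2 fold change -0.29, SE 0.0715, edgeR adjusted p = 0.00281). Pydc4 and Pydc3, which encode pyrin domain proteins, rose by 0.38 (SE 0.0726, edgeR adjusted p = 0.000269) and 0.33 (SE 0.0884, edgeR adjusted p = 0.00541). The call of Pydc3 was lost without DMSO replicate 2 (log2 fold change 0.23) and without GSI replicate 1 (0.18), at edgeR adjusted p-values of 0.0769 and 0.0957, and 2 genes of the list were then called in place of 4. How much sequence these relatives share with each other was not measured.

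**Figure D4:**
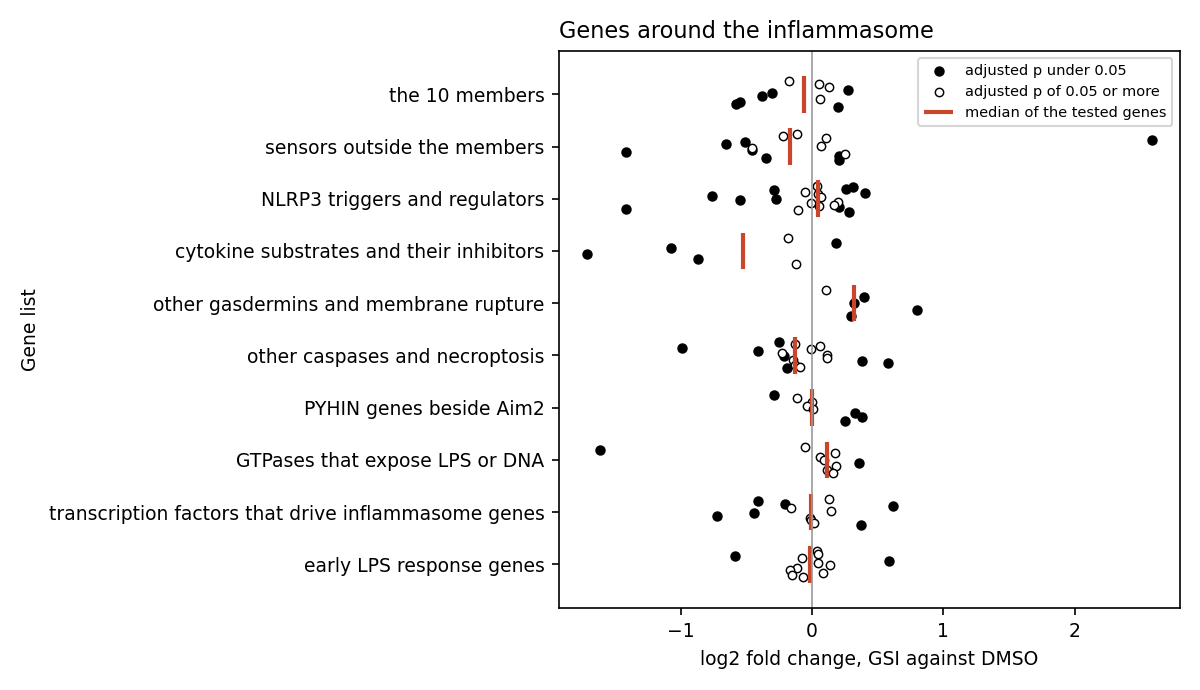
Log2 fold change with GSI against DMSO (x axis) of the tested genes of each list, with filled points for an edgeR adjusted p under 0.05, open points for the others and a red bar at the median. The list of cytokine substrates and their inhibitors has the lowest median, -0.53, and the gasdermin and membrane rupture genes the highest, 0.32, while the 10 inflammasome genes have a median of -0.06.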

How the data were processed

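Poly(A) RNA of 16 deposited samples (2 groups, 2 replicates, 4 columns taken as sequencing runs) had been made into strand-specific libraries, sequenced, trimmed with Trimmomatic, aligned to mm10 with STAR (2.5.0a in the submitters' processing notes, which also name mm9, Picard and bcl2fastq without a role) and counted with HTSeq. The authors deposited the raw counts per gene, without normalization. The strand setting of the counting was not given in the sources used here.

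Runs of the same replicate differed by about as much as sampling noise gives (chi-square per degree of freedom 1.01 to 1.03, 0 genes differing) and were summed. The 13211 genes kept by filterByExpr were tested with edgeR 4.0.16 (R 4.3.3; quasi-likelihood test, TMM, group as the only factor, Benjamini-Hochberg adjustment over all of them). The SE is the absolute log2 fold change divided by the square root of F, and intervals are 95% intervals of that fit. With 42694655 to 56932059 counts per library, the common biological coefficient of variation was 0.0579. Positions, lengths and shared 50-base stretches came from GENCODE M21 on GRCm38, which held 46574 of the 47069 gene IDs, and promoters from RefSeq. Protein sequences were not used here. The tests were checked on counts simulated from the fitted model, with true changes larger than that of any member. The check does not show how often changes of the members' size are found. Alternatives were DESeq2 1.42.0, other normalization factors and filters, a replicate block, each of the 16 runs as a sample, and leaving out each library, where a lone library was assumed to vary like the others.

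Members and lists were chosen with earlier results of these data known. The genes named are the 10 members, the 3 largest called changes of each list (among genes averaging 1 CPM or more whose groups did not overlap), and Il1b, Il18, Il1a, Nek7, Casp8, Naip6, Nlrp1a, Irf1, Irf2 and Irf8. Naip1, Kcnk13, Trpv2, Panx1, Fbxl2, Il18bp and Rela were named after their values were seen, and the marker genes are named as checks. A gene and a promoter motif that these rules give are not reported here. Likeness of patterns was not computed over 4 libraries.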

Additional observations from a re-analysis of the deposited data

How the results depend on the processing

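No member changed direction under any alternative. The number of members called, 6, was 5 with DESeq2, 7 with RLE factors, with no normalization factors and with at least 10 counts in every library, 6 with no filter, and 5 to 7 when a library was left out. The 16 runs as separate samples, whose spread is sampling noise, gave 9, with Aim2, Casp1 and Casp4 added, and 7582 calls over all tested genes in place of 5392. The number of all tested genes called lay between 4162 and 4978 when a library was left out and was 4222 with DESeq2. The median log2 fold change of all tested genes lay between 0.00773 and 0.0146 over the scalings.

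Samples with the same number deviated together only weakly (r = 0.155 over the tested genes, with 2 pairs), and the labels do not say that a number marks a shared culture. With the replicate block, 7 members were called, Aim2 being the addition (adjusted p = 0.0201), as were 6444 of all tested genes in place of 5392 and 5 of the GTPase genes in place of 2. Irf8 was also called under it (adjusted p = 0.0421).

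The GTPase list also gave 4 calls with DESeq2, 4 with no filter, 7 with the 16 runs and 4 without GSI replicate 2. The early LPS response list gave 7 calls with the 16 runs and 4 without GSI replicate 2 in place of 2, and the caspase and necroptosis list 13 with the 16 runs and 4 without DMSO replicate 1 in place of 7. The NLRP3 regulators gave 5 calls without DMSO replicate 1 in place of 10, and the PYHIN list 2 without DMSO replicate 2 and 2 without GSI replicate 1 in place of 4. The causes were not tested. Each SD is that of 2 libraries.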

Other observations

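Of 12 transcription factors known to drive inflammasome genes, all tested, 4 were lower, 2 were higher and 6 were not called, where 40.8% of all tested genes were called, with a median log2 fold change of -0.01. Rel, which encodes the NF-κB subunit c-Rel, fell from 488 to 296 CPM (log2 fold change -0.72, SE 0.0712, edgeR adjusted p = 9.11e-08), and Nfkb1, which encodes p105 and p50, from 311 to 229 CPM (-0.44, SE 0.0701, edgeR adjusted p = 4.2e-05). Rela, another NF-κB subunit gene of the list, did not pass the test (-0.01, SE 0.0686, edgeR adjusted p = 0.911). Irf7, a driver of type I interferon genes, rose from 785 to 1205 CPM (0.62, SE 0.0729, edgeR adjusted p = 9.62e-07). Irf2, which encodes another interferon regulatory factor, fell from 129 to 96.6 CPM (-0.41, SE 0.0890, edgeR adjusted p = 0.000917). The log2 fold change of Irf2 was -0.25 without GSI replicate 2 and -0.59 without GSI replicate 1. Irf1 (0.13, 95% interval -0.03 to 0.28, edgeR adjusted p = 0.179) and Irf8, known as a regulator of Naip genes (-0.16, 95% interval -0.31 to -0.00318, edgeR adjusted p = 0.0952), did not pass the test, and the adjusted p of Irf8 was 0.033 without GSI replicate 1, but 0.272 without DMSO replicate 1, 0.197 without DMSO replicate 2 and 0.448 without GSI replicate 2, where the log2 fold change was -0.09.

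Of 9 tested GTPases that expose bacterial LPS or DNA to Casp4 and Aim2, 1 was lower, 1 was higher and 7 did not pass the test, where 40.8% of all tested genes were called, with a median log2 fold change of 0.11. Gbp2b, a guanylate-binding protein, was at 325 and 283 CPM with DMSO and at 101 and 97.0 CPM with GSI, a log2 fold change of -1.61 (SE 0.0778, edgeR adjusted p = 4.81e-12). Gm12250, an immunity-related GTPase gene, rose from 179 to 228 CPM (0.36, SE 0.0753, edgeR adjusted p = 0.000775). Without GSI replicate 2, 4 of these genes were called in place of 2.

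Of 12 early LPS response genes, all tested, 1 was lower, 1 was higher and 10 were not called, against 40.8% of all tested genes called, with a median log2 fold change of -0.02. Cxcl1, a neutrophil chemokine, fell from 300 to 200 CPM (log2 fold change -0.58, SE 0.0705, edgeR adjusted p = 1.28e-06), and Ier3, an immediate early gene, rose from 70.8 to 106 CPM (0.59, SE 0.0720, edgeR adjusted p = 1.6e-06). Without GSI replicate 2, 4 of these genes were called.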
